A study of Homo sapiens with 4 samples.

Results

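The genes of the BET family and of the cereblon ubiquitin ligase were examined in the transcriptomes of cells treated with dBET1, the compound that joins both in the cell. The 8 genes are the BET genes BRD2, BRD3 and BRDT and the ligase genes CRBN, DDB1, CUL4A, CUL4B and RBX1. They were chosen by their role, as protein targets of the compound or subunits of the ligase it recruits, and were found by Ensembl identifier among the 64252 genes of the count table. One gene, BRDT, had no counts, and the other 7 passed the filter on low counts. RNA was sequenced from cells labelled NB4, a line from acute promyelocytic leukemia with the fusion gene PML-RARa. The cells had been treated for 24 h with 8 μM dBET1 (2 libraries) or with the same volume of its solvent DMSO (2 libraries). No genetic change separated the groups, and all libraries came from a single cell line. Libraries are numbered 1 and 2 within a group, and the labels do not say whether they came from separate cultures, so p-values measure only the spread between these libraries.

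BET proteins carry a pair of bromodomains, with which they bind acetylated lysines on histones and help to recruit the machinery of transcription. Cereblon, the product of CRBN, is the substrate receptor of a cullin-RING ligase. In that ligase DDB1 links the receptor to a cullin scaffold, either CUL4A or CUL4B, and the RING protein RBX1 docks the ubiquitin-conjugating enzyme. dBET1 is a proteolysis-targeting chimera (PROTAC): 1 end binds BET bromodomains and the other binds cereblon, so that BET proteins are ubiquitinated and sent to the proteasome. RNA-seq does not measure that step. It measures the mRNA of the targets and of the ligase after 24 h relative to the RNA of all genes in a library. Rises and falls given below are therefore relative, and amounts per cell were not measured.

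The libraries held 28019956 to 34685645 counts, and 17971 genes passed the filter of edgeR. The identity in the label was checked with marker genes. The granule genes MPO, AZU1, CTSG, ELANE and PRTN3, which define promyelocytes, summed to 15 to 17 counts with DMSO and 25 to 55 counts with dBET1, with ELANE and CTSG at 0 in every library. The erythroid genes GATA1, KLF1, HBG1, HBG2, HBA1, HBA2 and ALAS2 summed to 5127 and 6269 CPM (counts scaled to a common library size with TMM factors) with DMSO and to 3083 and 3031 CPM with dBET1. The defining markers of the labelled cell type were therefore almost absent, and the cells are called here by their label. All 7 of these erythroid genes were lower after dBET1 (edgeR's quasi-likelihood test), and the part of this change in the results below was not tested. HBG1 and HBG2, like HBA1 and HBA2, are near-identical copies whose reads can be split between them.

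The DNA before 3 of the genes is shown first, since BRD3 was higher and DDB1 and RBX1 were lower after dBET1 and each has a single transcription start in RefSeq (GRCh38.p14, the hg38 assembly). Each stretch is the 250 bases that end at the base before the start, written 5′ to 3′ along the gene. Capitals mark matches to the E-box CACGTG, bound by MYC and MAX, to the CCAAT box and to the GC box GGGCGG, searched on both strands, with overlapping matches counted.
BRD3, chr9:134068027-134068276, reverse strand: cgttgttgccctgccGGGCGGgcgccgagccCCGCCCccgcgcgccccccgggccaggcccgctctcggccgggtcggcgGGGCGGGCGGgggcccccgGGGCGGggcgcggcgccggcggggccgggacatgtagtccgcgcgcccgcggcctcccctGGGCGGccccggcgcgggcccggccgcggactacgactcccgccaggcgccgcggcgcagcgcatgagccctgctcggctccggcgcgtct
DDB1, chr11:61333106-61333355, reverse strand: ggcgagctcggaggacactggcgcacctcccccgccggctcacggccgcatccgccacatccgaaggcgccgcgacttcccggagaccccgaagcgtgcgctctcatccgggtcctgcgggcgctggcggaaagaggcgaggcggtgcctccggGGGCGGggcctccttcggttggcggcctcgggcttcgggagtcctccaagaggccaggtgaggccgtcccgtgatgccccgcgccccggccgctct
RBX1, chr22:40951128-40951377, forward strand: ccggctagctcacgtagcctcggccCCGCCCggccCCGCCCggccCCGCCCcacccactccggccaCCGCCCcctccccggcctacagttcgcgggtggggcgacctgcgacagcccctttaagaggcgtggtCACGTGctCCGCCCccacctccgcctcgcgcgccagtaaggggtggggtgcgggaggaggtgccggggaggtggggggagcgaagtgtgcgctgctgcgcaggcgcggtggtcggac

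The RBX1 stretch held 1 E-box, which begins 117 bases before the start, and 5 GC boxes. The BRD3 stretch held 6 GC boxes and no E-box, and the DDB1 stretch held 1 GC box and no E-box. None of the 3 held a CCAAT box. An E-box was found in 6.34% of the 35116 promoter stretches of this length in RefSeq, a CCAAT box in 32.0% and a GC box in 42.6%. Over the 19 listed starts of the 8 genes, 4 had an E-box (both overlapping starts of BRDT, 1 of the 4 starts of CUL4B, and RBX1), 4 had a CCAAT box and 13 had a GC box. BRD2 has 4 listed starts, of which 3 had a GC box and 0 an E-box. The counts are per gene and do not show which start was used.

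Both expressed BET genes rose after dBET1, and among the ligase genes DDB1, CUL4A and RBX1 fell while the changes of CRBN and CUL4B did not pass the test. By edgeR's quasi-likelihood test with a limit of 0.05 on the adjusted p, 2 of the 7 tested genes were higher, against 28.0% of all tested genes, and 3 were lower, against 27.6% of all tested genes. At these shares, 2 higher genes in 7 is close to the background and 3 lower genes in 7 is not far above it. With a log2 fold change of more than 1 added, the other threshold of the study, 0 of the 7 were higher (16.9% of all tested genes) and 1, RBX1, was lower (8.54% of all tested genes). In bulk RNA, fewer cells that express a gene and less of its RNA per cell cannot be told apart.

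**Figure D1:**
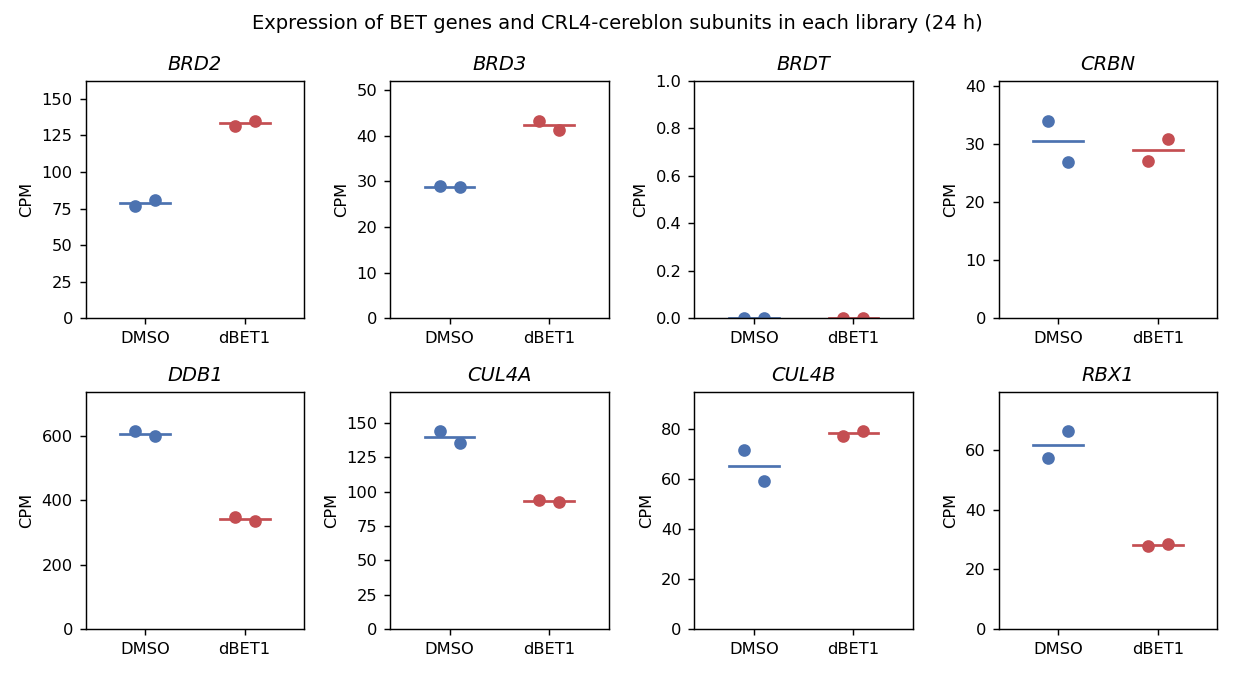
Level of each of the 8 genes in each library, in CPM on an axis that starts at 0. Points are libraries (2 with DMSO, 2 with dBET1) and lines are group means: BRD2 and BRD3 lie higher with dBET1, DDB1, CUL4A and RBX1 lie lower, the points of CRBN overlap, and BRDT is at 0.

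BRD2 (chromosome 6 of hg38, 32968594 to 32981505, forward strand) encodes a BET protein found in most tissues. It reached 76.6 and 81.1 CPM in the DMSO libraries and 131 and 135 CPM in the dBET1 libraries. The groups were well apart, and the replicates of each group lay within 5 CPM of each other. BRD2 rose 1.69-fold, or by 0.76 on the log2 scale (SE, the standard error, 0.0782; edgeR quasi-likelihood adjusted p = 0.000152). Its annotated bounds overlap HLA-DMA by 501 bases at its start, but HLA-DMA was at 2 to 5 counts in DMSO and 12 to 14 counts in dBET1 libraries, against 2278 to 4126 counts of BRD2.

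BRD3 (chromosome 9, 134030305 to 134068535, reverse strand), which encodes the closely related BET protein BRD3, had 28.9 and 28.8 CPM with DMSO. With dBET1 it had 43.3 and 41.4 CPM. The groups did not overlap, and BRD3 rose 1.47-fold (log2 fold change 0.56, SE 0.0953, edgeR quasi-likelihood adjusted p = 0.00185). BRD3OS, a gene on the other strand that shares 4362 bases with the bounds of BRD3, reached 5.29 ± 0.140 CPM with DMSO and 7.61 ± 1.57 CPM with dBET1 (SD, n = 2 per group), and its change did not pass the test (edgeR quasi-likelihood adjusted p = 0.0719). A further gene that overlaps BRD3, ENSG00000235138, shares 4516 bases with it and rose, with 11 and 6 counts in the DMSO libraries against 45 and 25 (log2 fold change 2.04, edgeR quasi-likelihood adjusted p = 0.0110). Whether counting used the strand is not given in the sources used here, so reads of such overlapping genes cannot be told apart.

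BRD2 and BRD3 together rose from 108 ± 3.04 to 176 ± 1.23 CPM (SD, n = 2 per group). BRD2 stayed the more abundant gene. The ratio of BRD2 to BRD3 counts within a library, which no scaling between libraries can change, was 2.65 and 2.82 with DMSO and 3.03 and 3.27 with dBET1, a log2 difference of 0.20. The groups did not overlap but lay close, with an SD of 0.0628 and 0.0760 on the log2 scale. With 2 libraries in each group an exact permutation test cannot give a p below 0.333, so no test was made of this or any other ratio.

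BRDT (chromosome 1, 91949343 to 92014426, forward strand), the BET gene of male germ cells, had 0 counts in all 4 libraries. A count of 0 allows up to 3 counts in a library, a level of 0.0919 to 0.107 CPM, so a level below this limit was not detectable at this depth.

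CRBN (chromosome 3, 3144628 to 3179727, reverse strand), the gene of the receptor that dBET1 binds, had 34.1 and 26.9 CPM with DMSO and 27.1 and 31.0 CPM with dBET1. The values of the groups overlapped. The log2 fold change was -0.07, with a 95% interval of -0.40 to 0.25 (edgeR quasi-likelihood adjusted p = 0.680). A fall of more than 0.40 or a rise of more than 0.25 lay outside this interval. Changes inside it cannot be told from no change with these libraries, and its ends are not limits of detection. The DMSO libraries differed by 0.33 on the log2 scale for CRBN, against a median of 0.18 over all tested genes. TRNT1, the gene of a tRNA-finishing enzyme that runs the other way and shares 8808 bases with CRBN, likewise did not pass the test, at 31.4 ± 2.30 CPM with DMSO and 31.6 ± 0.0991 CPM with dBET1 (SD, n = 2 per group).

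**Figure D2:**
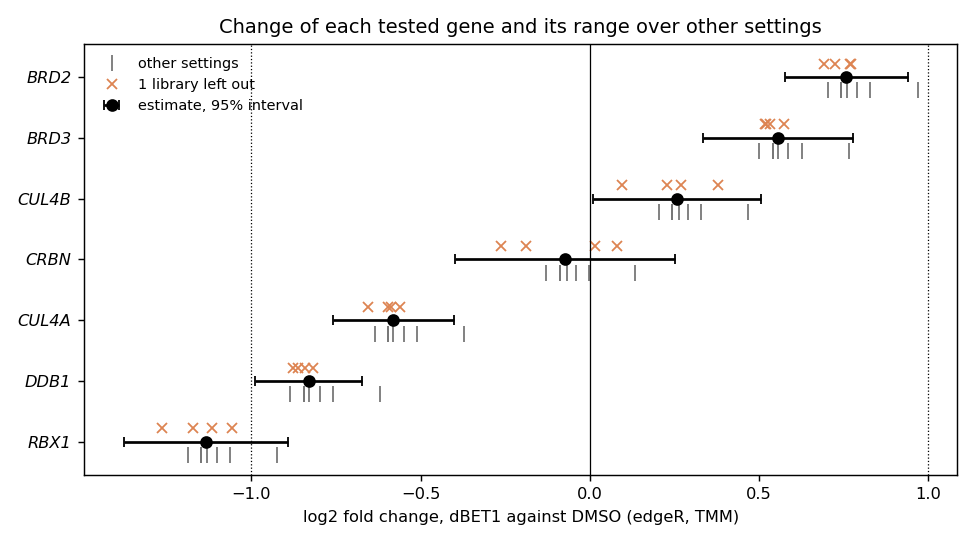
Log2 fold change of the 7 tested genes, dBET1 against DMSO, with the 95% interval from edgeR (black), the values with 1 library left out (crosses) and the values under other settings (ticks). Dotted lines mark a log2 fold change of 1 in either direction. BRD2 and BRD3 stay above 0, CUL4A, DDB1 and RBX1 stay below it, and only CRBN changes sign.

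DDB1 (chromosome 11, 61299451 to 61342596, reverse strand) encodes the adaptor that every CUL4 ligase uses to hold its receptor. It was the most abundant of the 8 genes, with 614 and 600 CPM with DMSO and 348 and 335 CPM with dBET1. The groups were far apart. DDB1 fell to 0.562 of its DMSO level (log2 fold change -0.83, SE 0.0680, edgeR quasi-likelihood adjusted p = 5.29e-05). TKFC, which encodes a kinase of triose sugars, starts on the other strand close to the RefSeq start of DDB1. It shares 9377 bases with the bounds of DDB1. TKFC rose from 40.2 ± 2.63 to 73.3 ± 1.92 CPM (SD, n = 2 per group; edgeR quasi-likelihood adjusted p = 0.000165).

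RBX1 (chromosome 22, 40951347 to 40973309, forward strand), the RING subunit shared by most cullin ligases, had 57.2 and 66.2 CPM with DMSO. It had 27.7 and 28.6 CPM with dBET1. RBX1 fell to 0.456 of its DMSO level (log2 fold change -1.13, SE 0.105, edgeR quasi-likelihood adjusted p = 8.87e-05), and it was the only gene of the 8 past a log2 fold change of 1. With library totals as the only scaling, its value was -0.92 and so short of that limit.

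The alternative scaffolds did not move alike. CUL4A (chromosome 13, 113208193 to 113267108, forward strand) had 144 and 135 CPM with DMSO and 93.9 and 92.7 CPM with dBET1. It fell to 0.668 of its DMSO level (log2 fold change -0.58, SE 0.0770, edgeR quasi-likelihood adjusted p = 0.000514). PCID2, which encodes a protein of mRNA export and overlaps the first 523 bases of CUL4A on the other strand, fell from 54.9 ± 1.82 to 36.1 ± 1.27 CPM (SD, n = 2 per group; edgeR quasi-likelihood adjusted p = 0.000935).

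CUL4B (chromosome X, 120505920 to 120604074, reverse strand) had 71.6 and 58.9 CPM with DMSO and 77.2 and 78.9 CPM with dBET1. The groups did not overlap, but the DMSO libraries differed by 0.28 on the log2 scale. The log2 fold change of 0.26 (SE 0.107) did not pass the test (edgeR quasi-likelihood adjusted p = 0.0729). It passed at 0.38 without DMSO replicate 1 (edgeR quasi-likelihood adjusted p = 0.00135), and also with library totals as the only scaling, at 0.47, with at least 10 counts required in every library, at 0.33, and with counts divided by 2, at 0.29. Without DMSO replicate 2 it was only 0.094 (edgeR quasi-likelihood adjusted p = 0.293). MCTS1, a gene of translation re-initiation that shares 10065 bases with the bounds of CUL4B on the other strand, fell from 67.2 ± 2.15 to 45.0 ± 0.914 CPM (SD, n = 2 per group; edgeR quasi-likelihood adjusted p = 0.000890).

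Within each library, CUL4A exceeded CUL4B 2.01- and 2.29-fold with DMSO and 1.22- and 1.17-fold with dBET1. The log2 ratio was lower by 0.85 with dBET1 (a log2 difference of -0.85), against an SD of 0.135 and 0.0354 within the groups. CUL4B thus made up 33.2% and 30.4% of the counts of both scaffolds with DMSO and 45.1% and 46.0% with dBET1. The sum of CUL4A and CUL4B was 205 ± 15.2 CPM with DMSO and 171 ± 0.371 CPM with dBET1 (SD, n = 2 per group). The share of CUL4B was thus higher in both dBET1 libraries than in either DMSO library.

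The ratio of CRBN to DDB1 counts was 0.0555 and 0.0449 with DMSO and 0.0778 and 0.0923 with dBET1, a log2 difference of 0.76 with an SD of 0.216 and 0.174 within the groups. The ratio of RBX1 to DDB1 counts was 0.0931 and 0.110 with DMSO and 0.0796 and 0.0852 with dBET1, a log2 difference of -0.30 with an SD of 0.173 and 0.0700. The former ratio lay higher with dBET1 and the latter lower, and neither overlapped between the groups.

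**Figure D3:**
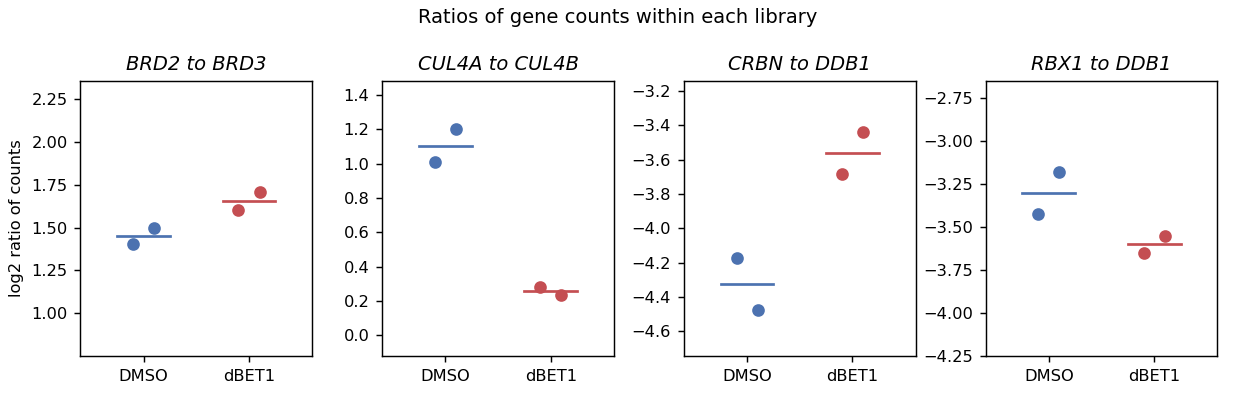
Ratios of gene counts within each library on the log2 scale, with points for libraries and lines for group means; every panel spans the same range of log2 units. The CUL4A to CUL4B ratio is 1.10 on average with DMSO and 0.26 with dBET1, and the CRBN to DDB1 ratio is -4.32 with DMSO and -3.56 with dBET1.

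Levels of different genes were compared per length, as CPM per kb of the canonical transcript of GENCODE. With DMSO the order was DDB1 at 143 ± 2.37, RBX1 at 52.8 ± 5.45, CUL4A at 24.0 ± 1.07, BRD2 at 15.9 ± 0.634, CRBN at 13.9 ± 2.31, CUL4B at 11.0 ± 1.52 and BRD3 at 5.09 ± 0.0183 CPM per kb (SD, n = 2). BRD2 and CRBN did not differ beyond their spread, while CRBN lay above CUL4B in both libraries by little more than the SD of CRBN. With dBET1, BRD2 moved to the second place at 26.9 ± 0.530 CPM per kb (SD, n = 2), ahead of RBX1 at 24.0 ± 0.550 CPM per kb (SD, n = 2), and CRBN and CUL4B lay within their spread, at 13.3 ± 1.26 and 13.2 ± 0.205 CPM per kb (SD, n = 2). The receptor CRBN was thus below DDB1 and RBX1 in both groups. When all annotated exons were merged instead, DDB1 stayed first at 39.1 CPM per kb with DMSO, but BRD3 at 4.19 CPM per kb came before CRBN at 3.79 and CUL4B at 1.93 CPM per kb. In the order of all tested genes by level per length with DMSO, DDB1 stood above 96.4% of genes, CRBN above 69.9% and BRD3 above 51.4%.

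**Figure D4:**
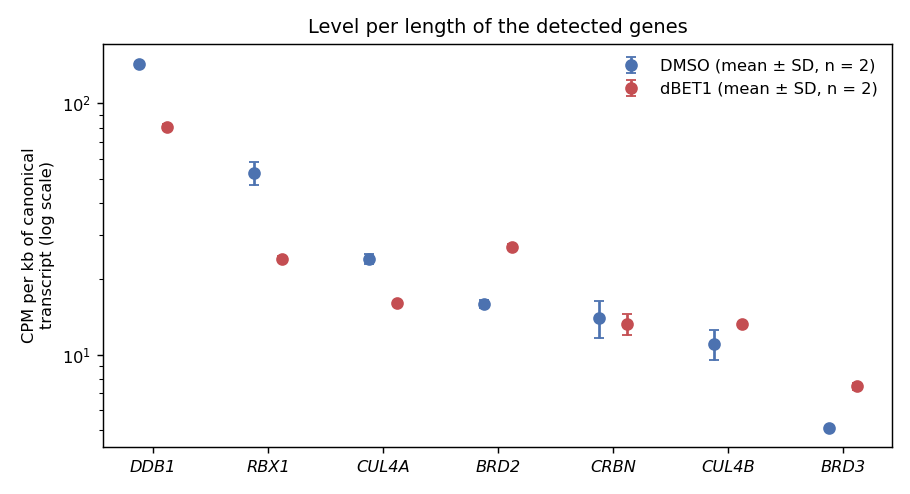
Level per length of the 7 detected genes in CPM per kb of canonical transcript, on a log axis; points are group means and bars are the SD of 2 libraries. DDB1 is highest in both groups (143 with DMSO, 80.4 with dBET1) and BRD3 is lowest (5.09 with DMSO, 7.48 with dBET1).

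The tested genes were split into deciles by abundance, from the lowest to the highest, to set each gene beside others of like abundance. BRD2, CUL4A and CUL4B fell in decile 9, in which 54.1% of genes were lower, 17.2% were higher and the median log2 fold change was -0.32. BRD2 therefore rose where most called genes fell. DDB1 fell in decile 10, with 62.2% lower and a median of -0.41, and RBX1 in decile 8, with 44.2% lower and a median of -0.19. BRD3 and CRBN fell in decile 7, with 34.2% lower, 25.6% higher and a median of -0.09.

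The genes with the most similar profile over the 4 libraries were sought among 14884 other tested genes with a symbol, by the Euclidean distance between log2 CPM values centred on each gene's mean. For BRD2 they were CHMP1B, PTPRS and MLXIP, at distances of 0.00642, 0.0215 and 0.0249. CHMP1B, a gene of the ESCRT membrane machinery, went from 42.5 ± 1.80 to 72.2 ± 1.40 CPM (SD, n = 2 per group). For BRD3 they were ASTN2, JARID2 and ZNF584-DT, at distances of 0.0120, 0.0178 and 0.0256, and JARID2, which encodes a partner of Polycomb repressive complex 2, went from 78.5 ± 0.0111 to 116 ± 4.92 CPM (SD, n = 2 per group). For CRBN they were AHI1, DPY19L1 and ADTRP, at distances of 0.0258, 0.0339 and 0.0359. With 4 libraries in 2 groups, such likeness mostly reflects the same size of change and the same difference between replicates.

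Related genes were counted in 5 lists, written from general knowledge. The lists hold genes that work with cullin-RING ligases, except the last, which holds genes of drug-induced substrates of cereblon. Of the 94 listed genes, 92 were tested, 13 were higher (14.1%, against 28.0% of all tested genes) and 50 were lower (54.3%, against 27.6%) by the same edgeR test. Their median log2 fold change was -0.34, against 0.05 over all tested genes. These genes are abundant: 75 of the 92 lay in deciles 7 to 10, in which 34.2% to 62.2% of all genes were lower. With library totals as the only scaling 32 were lower and 19 higher, and without dBET1 replicate 1 the number higher was 8.

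**Figure D5:**
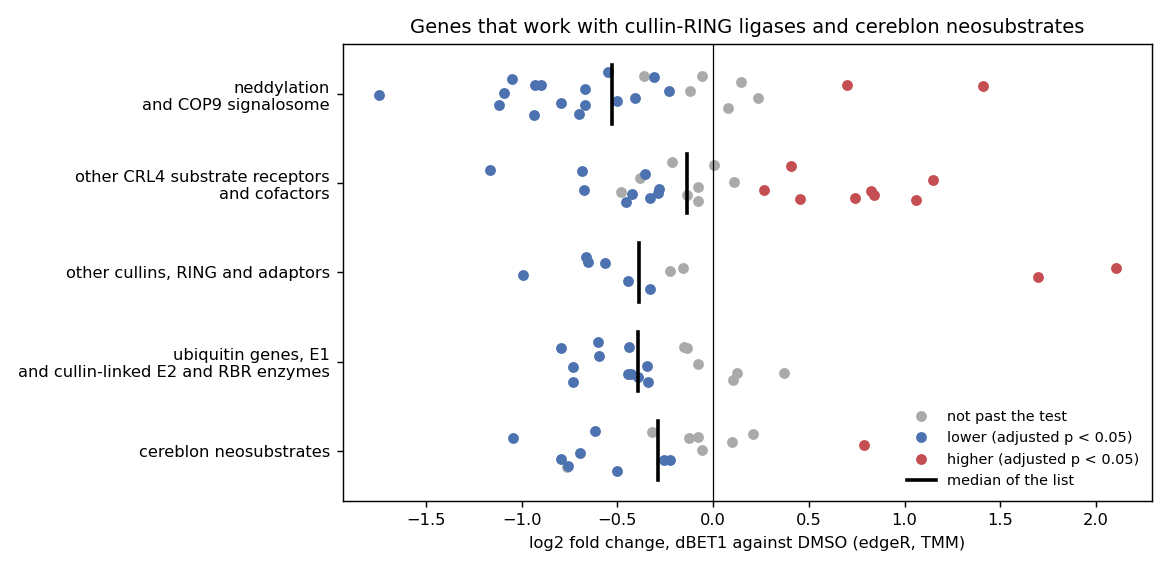
Log2 fold change of 92 tested genes in 5 lists, dBET1 against DMSO; each point is a gene, colored by whether it was higher, lower or not past an adjusted p of 0.05, and black bars are list medians. The medians run from -0.53 for neddylation and the COP9 signalosome to -0.14 for other CRL4 receptors, and the highest points are CUL7 and, at 1.70, CUL9.

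Cullins work only when the ubiquitin-like protein NEDD8 is attached to them, and the COP9 signalosome removes it. In this list 16 of 24 genes were lower (66.7%, against 27.6% of all tested genes) and 2 were higher (8.33%, against 28.0%). The median log2 fold change was -0.53. The shares of all tested genes given here and below take no account of abundance. In deciles 7 to 10, 34.2% to 62.2% of all genes were lower. NEDD8 fell from 88.0 ± 2.66 to 41.2 ± 0.112 CPM (SD, n = 2 per group). NAE1, a subunit of the enzyme that activates NEDD8, fell by 1.05 on the log2 scale, and UBE2M, the enzyme that conjugates it to CUL4A and CUL4B among others, fell by 1.12. DCUN1D5, which helps to attach NEDD8 to cullins, had the smallest p of the list and fell from 127 ± 7.07 to 38.0 ± 1.41 CPM (SD, n = 2 per group), a log2 fold change of -1.74. COPS5, the catalytic subunit of the COP9 signalosome, fell by 0.79. CAND1, the factor that exchanges receptors on cullins, fell by 0.23 (edgeR quasi-likelihood adjusted p = 0.0374), a call lost with library totals as the only scaling, at -0.02. The genes that rose were SENP8, a protease that processes NEDD8, from 1.05 ± 0.122 to 2.79 ± 0.0365 CPM (SD, n = 2 per group), and DCUN1D3, with a log2 fold change of 0.70. The number higher was 1 without dBET1 replicate 1 and with no filter on low counts, and library totals as the only scaling gave 4 higher and 13 lower.

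Of 25 tested genes for other receptors and cofactors of CUL4 ligases, 8 were higher (32%, against 28.0% of all tested genes) and 9 were lower (36%, against 27.6%), shares near those of all genes. With library totals as the only scaling 9 were higher and 3 lower, and the median log2 fold change of -0.14 turned to 0.07. Over all 17971 tested genes that scaling gave 6703 higher and 3573 lower, and their median moved likewise, from 0.05 to 0.26. With no filter on low counts there were 4 higher and 7 lower. Fewer were called in either direction with either dBET1 library left out, as was so over all tested genes. The median was then -0.14 without dBET1 replicate 1 and -0.17 without dBET1 replicate 2. AMBRA1, a receptor for D-type cyclins, rose by 1.15 on the log2 scale, to 73.3 ± 0.101 CPM (SD, n = 2) with dBET1. WDTC1 rose by 1.06 and DCAF10 by 0.83 on the log2 scale, and DDB2, which recognizes DNA damaged by ultraviolet light, rose from 6.87 ± 0.160 to 11.5 ± 0.652 CPM (SD, n = 2 per group). DCAF13, which also acts in ribosome assembly, fell from 164 ± 8.88 to 73.4 ± 0.683 CPM (SD, n = 2 per group). DDA1, a small protein that binds DDB1, fell by 0.69 and DCAF1, the receptor used by the viral protein Vpr, by 0.67. DTL, the receptor of replication-coupled degradation, and DCAF15, the receptor bound by indisulam, fell by 0.29 and 0.28. Both of these calls were lost with library totals as the only scaling, at -0.08 and -0.07.

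Among the other cullins and their adaptors, 6 of 10 were lower (60%, against 27.6% of all tested genes) and 2 were higher (20%, against 28.0%). Library totals as the only scaling gave 2 higher and 4 lower. The atypical cullin genes CUL7 and CUL9 were the ones that rose, CUL7 from 21.5 ± 2.08 to 92.2 ± 3.94 CPM and CUL9 from 20.6 ± 0.577 to 66.7 ± 2.07 CPM (SD, n = 2 per group). CUL1, the scaffold of SCF ligases, fell from 146 ± 4.47 to 92.5 ± 0.784 CPM (SD, n = 2 per group), and CUL3 fell by 0.56 on the log2 scale. ELOC and ELOB, adaptors of CUL2 and CUL5 ligases, fell by 0.99 and 0.65. RNF7, the RING protein that serves CUL5 in place of RBX1, had a log2 fold change of -0.22 that did not pass the test (edgeR quasi-likelihood adjusted p = 0.122).

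There were 17 genes of ubiquitin itself and of the enzymes that load and pass it on. Of these, 11 were lower (64.7%, against 27.6% of all tested genes) and 0 were higher (against 28.0%). With an unadjusted p under 0.05 in the edgeR test 1 were higher, and DESeq2 also gave 0 higher. Library totals as the only scaling gave 2 higher and 7 lower, and 1 was higher without DMSO replicate 2 or with at least 10 counts required in every library. UBE2G1, an enzyme that extends ubiquitin chains on substrates of cereblon, fell by 0.73 on the log2 scale, from 73.4 ± 6.46 CPM (SD, n = 2) with DMSO. UBE2D3, which places the first ubiquitin, fell by 0.35 on the log2 scale, a call lost with library totals as the only scaling, at -0.14. UBE2D2 fell by 0.73, UBE2L3 by 0.60 and ARIH2, which works with CUL5, by 0.59.

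Drugs that bind cereblon can turn other proteins into its substrates, and genes of these neosubstrates formed the last list. Of 18 genes 16 were tested. Of these, 8 were lower (50%, against 27.6% of all tested genes) and 1 was higher (6.25%, against 28.0%). Fewer were lower with either dBET1 library left out. The median log2 fold change was -0.29, and it was -0.28 without dBET1 replicate 1 and -0.39 without dBET1 replicate 2. Library totals as the only scaling gave 2 higher and 5 lower, as did at least 10 counts required in every library. SALL4 had 0 counts in every library, and ZBTB16 had 9 and 9 counts with DMSO and 3 and 0 with dBET1. GSPT1, a translation termination factor, fell from 269 ± 8.90 to 130 ± 3.13 CPM (SD, n = 2 per group). IKZF1, a transcription factor of blood cells, fell from 127 ± 17.0 to 75.5 ± 0.930 CPM (SD, n = 2 per group), and RAB28 fell by 0.79 on the log2 scale. IKZF3, a relative of IKZF1, fell by 0.50 and the kinase gene CSNK1A1 by 0.26, both of which missed the test with library totals as the only scaling, at -0.29 and -0.05. PATZ1, a zinc finger gene, rose from 10.7 ± 0.108 to 18.5 ± 0.479 CPM (SD, n = 2 per group). These are changes of mRNA, and protein levels were not measured in these libraries.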

How the data were processed

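Total RNA of 4 libraries was sequenced as paired-end reads. The authors aligned them to hg38 (Ensembl) with HISAT2 2.2.0, estimated abundances with StringTie and deposited unnormalized counts of each gene as whole numbers. How the counts were written and the strand setting are not given in the sources used here. No sample column was left out (0 columns), and 0 rows named no gene. Symbols, bounds and lengths came from GENCODE release 44 on hg38, which held 56105 of 64252 identifiers. The remaining identifiers took 2.57% of the counts and may include copies of BRD2 on alternate haplotypes, which were not used here. All 8 genes matched RefSeq promoters.

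Counts were analysed with edgeR 4.0.16 in R 4.3.3: filterByExpr, TMM factors (0.918 to 1.08), the quasi-likelihood test with the group alone, and Benjamini-Hochberg adjustment over 17971 genes. A standard error is the log2 fold change divided by the square root of F, and 95% intervals use its t quantile. CPM used the TMM-scaled totals, and a pseudocount of 0.5 CPM was added for distances. Replicates differed by more than counting noise (chi-square per degree of freedom 23.6 for DMSO and 8.14 for dBET1), so each library was counted as 1 replicate. Limits for a count of 0 cover counting error only. Alternatives were DESeq2 1.42.0, its size factors, total counts, other count filters, a replicate block, each library left out and counts divided by 2. The fit was tested on simulated data.

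Genes named are the 8, markers, overlapping genes, nearest profiles, some listed genes taken for their role and, per list, the 3 with the smallest p in each direction. The members and lists were chosen with earlier results of these data known. Some results of the BET family and of the marker lists are not reported here.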

Additional observations from a re-analysis of the deposited data

How the results depend on the processing

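The directions of BRD2, BRD3, DDB1, CUL4A and RBX1 and their calls at an adjusted p under 0.05 were the same under all 11 alternatives, with log2 fold changes of 0.69 to 0.97, 0.50 to 0.77, -0.88 to -0.62, -0.66 to -0.37 and -1.26 to -0.92. The log2 fold change of CRBN, -0.07, changed sign with total counts only, at 0.13, without DMSO replicate 1, at 0.080, and without dBET1 replicate 1, at 0.015, ran from -0.26 to 0.080 with each library left out, and passed the test under none of the 11 (adjusted p of 0.0753 to 0.987, DESeq2 and edgeR's quasi-likelihood test). With total counts only, the median log2 fold change of all tested genes moved from 0.05 to 0.26 and higher genes made up 65.2% of the calls, against 50.4%, while 0 of the 8 genes passed a log2 fold change of -1 and 32 related genes were lower, against 50. This scaling omits the TMM factors, which ran higher with dBET1. With no filter on low counts, 8 related genes were higher, against 13; 33380 genes were then tested. With each library left out in turn, 8 to 14 related genes were higher, and 3356 (without dBET1 replicate 2) to 5118 of all genes were higher, against 5038. The lone library of a group is there assumed to vary like the others. The ratio differences kept their sign when each library was left out, at 0.15 to 0.26 for BRD2 to BRD3, -0.94 to -0.75 for CUL4A to CUL4B, 0.61 to 0.92 for CRBN to DDB1 and -0.42 to -0.18 for RBX1 to DDB1. With the replicate block, 4976 genes were higher and 4897 lower and no call of the 8 genes changed. The shared numbers need not pair the libraries: deviations of same-numbered libraries from their group means had a correlation of -0.00052 across genes. Counts of BRD2 summed over further identifiers were not run, since the reference names 1 identifier BRD2. With 2 libraries in each group, SDs rest on 2 values and changes the size of that of CUL4B lie near the limit of the test.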
